A study of Mus musculus with 24 samples.

Results

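RNA for the tumour suppressor p53 (gene Trp53), for its inhibitors Mdm2 and Mdm4 and for 7 of its known target genes was followed in sorted blood stem and progenitor cells of mice. The 10 genes, taken by name from a count table of 56748 genes, were Trp53, Mdm2, Mdm4, Ccng1, Sesn1, Zmat3, Trp53inp1, Aen, Eda2r and Phlda3. There were 24 libraries of total RNA in 8 groups of 3, from 12 KO-labelled and 12 WT samples. Each genotype had a group labelled as haematopoietic stem cells (HSC) and groups labelled as the multipotent progenitors MPP1, MPP2 and MPP4. Cells of both genotypes came from bone marrow of mice given tamoxifen, an agent commonly used to switch on an inducible Cre recombinase. The labels name no deleted gene, Cre driver, strain or age. They also leave unsaid whether libraries of 1 group came from separate animals, so the p-values rest on a spread that may be technical.

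The p53 protein is a transcription factor that is held at low levels by the ubiquitin ligase Mdm2 and its partner Mdm4, and that is stabilised when DNA or ribosome synthesis is disturbed. It then switches on genes that stop the cell cycle, repair DNA, limit growth signalling or start cell death, and also Mdm2 itself, which closes a negative feedback loop. In blood stem cells p53 is known for restraining division and for removing damaged cells. Because p53 is controlled largely through the stability of its protein, the RNA of its targets is commonly read as a sign of its activity beside the RNA of Trp53.

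The sequence that p53 binds is made of a pair of copies of a short palindromic consensus, here called the p53 half-site. Promoter windows of 300 bases, from 250 before to 50 after the start of transcription, were available from RefSeq (mouse build GRCm38.p6) for 8 of the 10 genes, and 5 of them (62.5%) held a match to a single half-site. The share was 23.1% (9 of 39) among other p53 target genes with a window, 9.55% (2582 of 27025) among all genes and 8.36% of 32851 windows. The consensus reads the same on both strands, so 1 scan covered both. Matches are shown with 25 bases on either side, on the strand of the gene, with the half-site in capitals. Only matches whose shown bases end before the start are given, 5 in all. They are p53-like letters found in these promoters. The genes were chosen as p53 and its targets, so the matches are tied to that choice.
Trp53: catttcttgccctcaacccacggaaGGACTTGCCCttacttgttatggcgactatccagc
Mdm2: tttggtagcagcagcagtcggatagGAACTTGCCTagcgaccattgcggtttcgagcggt
Ccng1: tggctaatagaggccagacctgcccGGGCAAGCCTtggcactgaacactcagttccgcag
Sesn1: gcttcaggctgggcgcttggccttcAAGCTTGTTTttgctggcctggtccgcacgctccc
Aen: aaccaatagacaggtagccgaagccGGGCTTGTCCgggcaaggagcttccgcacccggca
These lie at chr11:69580259-69580318 on the plus strand (Trp53), chr10:117710910-117710969 on the minus strand (Mdm2), chr11:40755437-40755496 on the minus strand (Ccng1), chr10:41887241-41887300 on the plus strand (Sesn1) and chr7:78895912-78895971 on the plus strand (Aen). The capitals begin 75 bases before the start in Trp53, 186 in Mdm2, 185 in Ccng1, 173 in Sesn1 and 121 in Aen. Sesn1 has a pair of windows, and the match is in that of a start inside the gene and not in that of the upstream start. Both windows of Aen held a match, and 1 is shown. The windows of Mdm4, Eda2r and Phlda3 held no such letters. A match describes the sequence and does not show that p53 binds there.

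Total counts were 2894916 to 3667509 in KO-labelled and 2540511 to 3807003 in WT libraries. The gene that the study of this series deleted is understood to be Ddx6, a helicase of P-bodies, although the labels do not say so. Ddx6 RNA was not called lower in KO-labelled libraries in any population. In MPP1 Ddx6 was called higher (log2 fold change 0.61 ± 0.18 (SE), edgeR adjusted p = 0.0211), as were 21.5% of genes of at least 20 CPM. It had 67.6, 93.6 and 67.0 CPM (the count relative to the scaled library total) in KO-labelled HSC, against 67.1, 55.2 and 64.0 CPM in WT HSC. On the average of the populations it was higher (log2 fold change 0.32 ± 0.09 (SE), edgeR quasi-likelihood test with Benjamini-Hochberg adjustment, adjusted p = 0.00355), as were 51.6% of genes of at least 20 CPM. After the subtraction of background described next its log2 fold change on the average was 0.04 (adjusted p = 0.811) and in HSC -0.15 (adjusted p = 0.668). In MPP1 it was then 0.35 (adjusted p = 0.328). The libraries are therefore called KO-labelled. Counts over olfactory and vomeronasal receptor genes, which blood cells are not known to use, gave an estimate of reads spread over gene bodies. Extended by length to all genes with a known span, this background came to 5.46% of the total in KO-labelled and 22.0% in WT HSC. It came to 13.6% and 23.7% in MPP1, 9.33% and 11.4% in MPP2, and 18.04% and 29.8% in MPP4, in the order KO-labelled and WT. The estimate takes the density to be the same in every gene, and it was above the count of some. In WT MPP4, 32.5 counts were expected over Ms4a1 and 74.9 over Col3a1, which had 0 and 51. Subtraction can therefore take too many counts from a gene. Why a call was lost after it was not tested. All 10 stem and progenitor markers had a count in every group. Some of these counts were near the expected background, which was 80.5% of the Slamf1 counts in KO-labelled MPP1. Markers went against the names MPP2 and MPP4. Flt3, a receptor that marks MPP4, averaged 543.5 CPM in KO-labelled and 1138 CPM in WT libraries labelled MPP2, and 84.6 CPM in KO-labelled and 64.9 CPM in WT libraries labelled MPP4. Slamf1 (CD150), which marks HSC and MPP2, averaged 4.78 CPM in KO-labelled and 7.86 CPM in WT libraries labelled MPP2, and 87.5 CPM in KO-labelled and 41.1 CPM in WT libraries labelled MPP4. Both genotypes show this order, and MPP2 and MPP4 are used here as labels only. Marker levels also differed between the genotypes. In HSC the summed level of the stem and progenitor markers ran from 8906 to 9125 CPM in KO-labelled and from 4513 to 4621 CPM in WT libraries. Mecom alone had 48106 counts over the KO-labelled and 20360 over the WT libraries. Procr (204 against 607 counts), Cd34 (270 against 567), Flt3 (279 against 687), Fgd5 (1728 against 2592) and Cd48 (9 against 57) went the other way. Expected background was 114% of the Cd48 counts in KO-labelled and 69.8% in WT HSC. The sum of 4 megakaryocyte markers ran from 465.0 to 530.7 CPM in KO-labelled and from 192 to 228 CPM in WT HSC. Vwf had 3939 counts in KO-labelled and 1782 in WT HSC. The other counts, in the same order, were 31 and 34 for Pf4, 471 and 442 for Itga2b, and 2 and 0 for Gp1bb. The sum of 6 erythroid markers in HSC ran from 69.8 to 83.6 CPM in KO-labelled and from 147 to 166 CPM in WT libraries. Klf1 (53 against 19 counts) went the other way. The erythroid sum ran from 56.7 to 90.6 CPM in KO-labelled and from 609.6 to 637.8 CPM in WT MPP1. That of 6 granulocyte and monocyte markers ran from 8.48 to 13.2 CPM in KO-labelled and from 141 to 168 CPM in WT MPP1. Of the latter, S100a9 (16 against 13 counts) went the other way. In MPP4 the granulocyte and monocyte sum ran from 338 to 389.7 CPM in KO-labelled and from 121 to 133 CPM in WT libraries. Mpo had 2898 counts over the KO-labelled and 1024 over the WT libraries of MPP4. S100a8 (1 against 24 counts) and S100a9 (1 against 15) went the other way. The summed level of 5 mast cell and basophil markers ran from 465.1 to 530.1 CPM in KO-labelled and from 48.5 to 63.3 CPM in WT MPP2. The part of these differences in the results that follow was not tested. In such bulk samples, fewer cells of a type and less RNA per cell cannot be told apart.

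In terms of level per kb of exon, the scale on which genes can be compared, Sesn1 was the most abundant of the 10 genes in every group before background subtraction. Its group means were 29.5 to 70.6 CPM per kb. Trp53 followed at 21.3 to 35.5 CPM per kb. After subtraction WT MPP4 had 156 CPM of Sesn1 and 161 CPM of Trp53, over 3.982 and 4.045 kb of exon, so Sesn1 was not ahead there. The levels that follow are from counts as deposited. Mdm2 had 9.57 to 18.7 CPM per kb and Mdm4 9.46 to 15.2. Aen, Trp53inp1 and Ccng1 lay between 3.42 and 12.7 CPM per kb, and Zmat3 between 1.19 and 4.10. Eda2r (0.16 to 1.23 CPM per kb) and Phlda3 (0 to 2.75) were close to the limit of what these libraries can count.

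**Figure D1:**
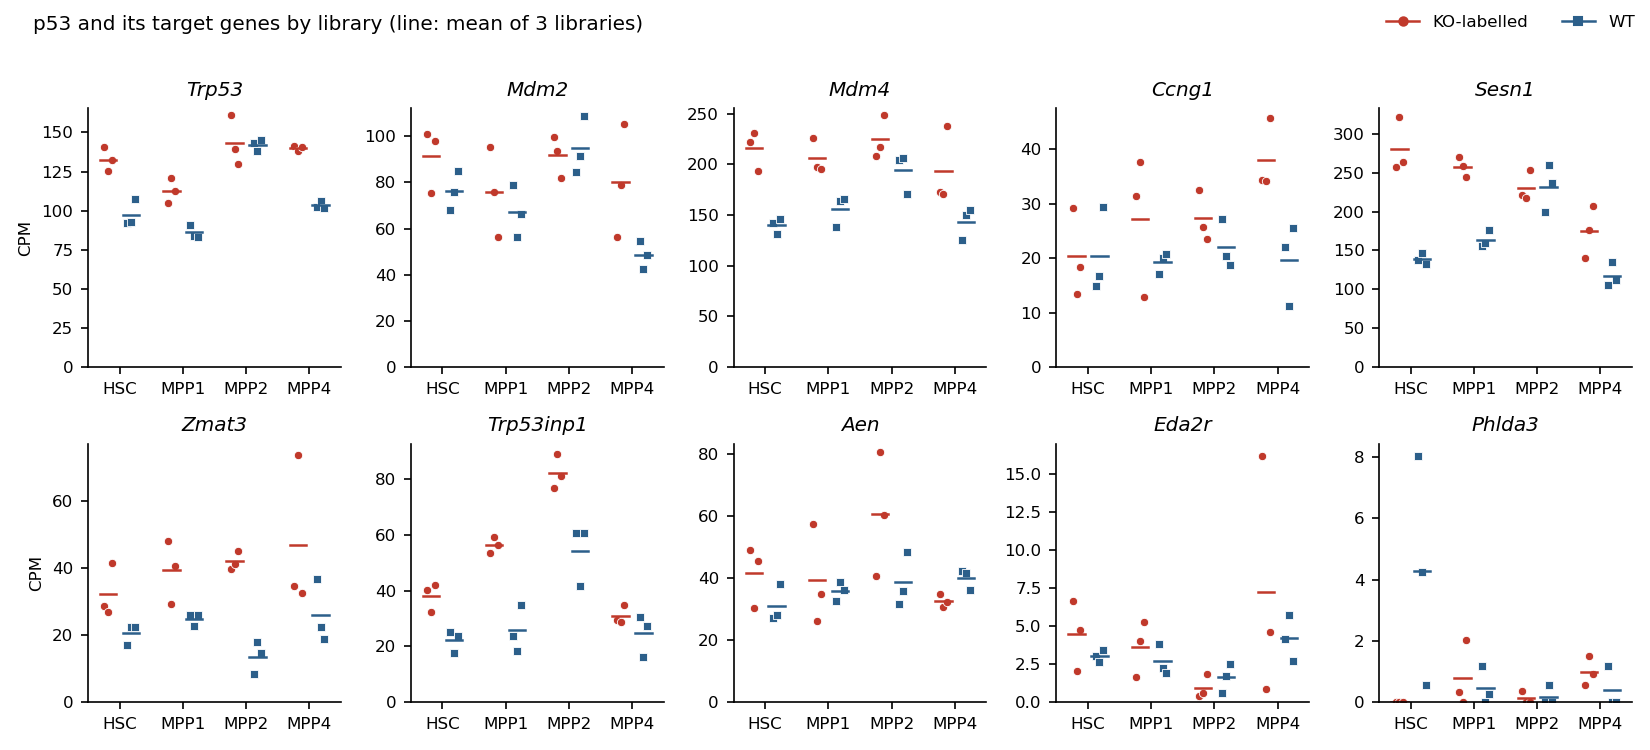
Level of each gene in CPM (y axis, from 0) in each library, by population (x axis), with KO-labelled libraries as red circles to the left of WT libraries as blue squares and a line at the mean of 3 libraries. Sesn1 libraries of KO-labelled HSC sit between 258 and 322 CPM, above those of WT HSC at 132 to 146 CPM, while the groups overlap in MPP2.

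Of the 10 genes, 9 passed the filter on low counts, and calls were made at an adjusted p under 0.05 over the 21964 genes tested. In HSC 4 of the 9 (Trp53, Mdm4, Sesn1, Trp53inp1) rose in KO-labelled libraries, where 18.3% of all genes tested and 43.5% of the 8510 genes of at least 20 CPM were called higher. The same 4 rose in MPP1, where 8.71% of all genes and 21.5% of genes of at least 20 CPM were called higher. In MPP2 only Zmat3 rose, against 3.73% and 8.34%. In MPP4 Trp53, Mdm2, Mdm4 and Sesn1 rose, against 11.4% and 27.4%. On the average of the 4 populations 7 of the 9 rose (all but Eda2r and Aen), against 22.9% of all genes and 51.6% of genes of at least 20 CPM. None of the 9 was called lower in KO-labelled libraries. Of all genes tested, 24.8% were called lower in HSC, 4.9% in MPP1, 4.17% in MPP2, 6.47% in MPP4 and 30.3% on the average. All of the 9 but Eda2r averaged at least 20 CPM, and the share of such genes called lower is not given. These shares therefore cannot tell whether the lack of lower calls sets the 9 apart. The members' median log2 fold change was 0.55 in HSC, 0.44 in MPP1, 0.21 in MPP2 and 0.57 in MPP4. For genes of at least 20 CPM it was 0.44, 0.23, 0.07 and 0.30 in the same order, and for all genes tested -0.31, -0.10, -0.07 and -0.08. With median-of-ratios size factors the median over all genes was -0.46 in HSC, -0.20 in MPP1, -0.10 in MPP2 and -0.24 in MPP4. Of all genes called, 64.0% were higher in KO-labelled MPP1 and 63.8% in MPP4, against 52.2% and 44.1% with those size factors.

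Trp53 itself (ENSMUSG00000059552.14) had 140, 125 and 132 CPM in KO-labelled HSC, against 92.0, 92.6 and 107 CPM in WT HSC. The groups did not overlap, and the difference was 1.36-fold (log2 fold change 0.45 ± 0.13 (SE), edgeR adjusted p = 0.00625). It had 105, 121 and 113 CPM in KO-labelled MPP1, against 91.1, 83.8 and 83.4 CPM in WT MPP1 (1.31-fold, edgeR adjusted p = 0.0429). It had 141, 138 and 141 CPM in KO-labelled MPP4, against 103, 106 and 102 CPM in WT MPP4 (1.35-fold, edgeR adjusted p = 0.0165). In both populations every KO-labelled library lay above every WT library. In MPP2 it had 161, 139 and 130 CPM in KO-labelled libraries, against 143, 138 and 145 CPM in WT libraries. These overlapped, and the interval of the log2 fold change ran from -0.25 to 0.28. Of the genes of at least 20 CPM, 49.5% had a larger fold change than Trp53 in HSC, 35.6% in MPP1 and 38.5% in MPP4. After the estimated background was subtracted from every gene the log2 fold change of Trp53 was -0.07 ± 0.11 in HSC, 0.06 ± 0.11 in MPP1 and 0.04 ± 0.11 in MPP4, and it was called in no population. Background made up 0.426% of the Trp53 counts in KO-labelled and 1.87% in WT HSC. The subtraction also changed the library totals, and why the Trp53 calls were lost was not tested. The call in MPP1 was also lost without any single one of the 6 libraries compared (adjusted p 0.051 to 0.187), and that in MPP4 without WT replicate 1 (adjusted p = 0.053).

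Mdm2 (ENSMUSG00000020184.16), the ubiquitin ligase that marks p53 for destruction and is itself a p53 target, passed the test only in MPP4. It had 56.3, 79.1 and 105 CPM in KO-labelled MPP4, against 54.7, 42.7 and 48.5 CPM in WT MPP4. The lowest KO-labelled library lay just above the highest WT library, and the rise was 1.65-fold (log2 fold change 0.72 ± 0.21 (SE), edgeR adjusted p = 0.0110). Without KO-labelled replicate 3 it was 0.48 with an adjusted p of 0.141, without WT replicate 2 it was 0.64 with an adjusted p of 0.064, and after background subtraction 0.39 with an adjusted p of 0.324. In HSC, Mdm2 had 101, 75.3 and 97.9 CPM in KO-labelled libraries, against 67.9, 75.9 and 84.9 CPM in WT libraries. These overlapped, and the interval of the log2 fold change was -0.15 to 0.67. In MPP1 (-0.24 to 0.59) and MPP2 (-0.46 to 0.36) the intervals also held 0.

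Mdm4 (ENSMUSG00000054387.14), which blocks the activating part of p53 and pairs with Mdm2, did not overlap between the genotypes in any of the 4 populations before background subtraction. The share of all genes whose libraries lay apart in this way was not counted. In HSC it had 222, 231 and 194 CPM in KO-labelled libraries, against 142, 132 and 146 CPM in WT libraries (1.54-fold, edgeR adjusted p = 0.00018). In MPP4 it had 172, 171 and 238 CPM in KO-labelled libraries, against 126, 150 and 155 CPM in WT libraries (1.35-fold, adjusted p = 0.0162). Every KO-labelled library lay above every WT library, with KO-labelled replicate 3 of MPP4 apart from the other two. In MPP1 the means were 206 ± 16.9 CPM in KO-labelled and 156 ± 15.1 CPM in WT libraries (SD, n = 3 each; 1.32-fold, edgeR adjusted p = 0.0317). In MPP2 they were 225 ± 21.1 and 194 ± 19.8 CPM, which did not pass the test (adjusted p = 0.367). Without KO-labelled replicate 3 or WT replicate 1 the call in MPP4 was lost (adjusted p = 0.198 and 0.103), as was that in MPP1 without replicates 1 or 2 of either genotype (0.051 to 0.170). After background subtraction the log2 fold change of Mdm4 was 0.10 to 0.18 in the 4 populations, with no call. The genotypes then overlapped in each of the 4. In HSC the libraries ran from 180 to 211 CPM in KO-labelled and from 162 to 183 CPM in WT.

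Sesn1 (ENSMUSG00000038332.14) encodes sestrin 1, a p53 target that restrains the growth kinase complex mTORC1 and takes part in the response to oxidative stress. It had the lowest adjusted p of the 10 genes. In HSC it had 258, 322 and 263 CPM in KO-labelled libraries, against 138, 146 and 132 CPM in WT libraries. The groups lay far apart, and the rise was 2.02-fold (log2 fold change 1.02 ± 0.13 (SE), edgeR adjusted p = 3.56e-08). In MPP1 it had 270, 258 and 244 CPM in KO-labelled libraries, against 155, 160 and 177 CPM in WT libraries (1.57-fold, edgeR adjusted p = 0.000287). In MPP4 it had 141, 177 and 207 CPM in KO-labelled libraries, against 105, 136 and 112 CPM in WT libraries (1.48-fold, edgeR adjusted p = 0.00153). Neither pair of groups overlapped. In MPP2 it had 221, 217 and 254 CPM in KO-labelled libraries, against 200, 260 and 237 CPM in WT libraries, a log2 fold change of -0.01 ± 0.13. The difference between the populations was itself past the threshold for Sesn1 (edgeR interaction test, adjusted p = 0.000472), where 17.7% of all genes and 34.3% of genes of at least 20 CPM were called, and it was the only one of the 9 genes for which it was. After background subtraction the rise of Sesn1 in HSC was smaller and still called (log2 fold change 0.62 ± 0.14, adjusted p = 0.00506), with 258 ± 30.4 CPM in KO-labelled and 168 ± 9.66 CPM in WT HSC (SD, n = 3 each). In MPP1 (0.39, adjusted p = 0.107) and MPP4 (0.31, adjusted p = 0.212) the calls were lost, and the interaction had an adjusted p of 0.0902.

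Zmat3 (ENSMUSG00000027663.13) encodes a zinc finger protein that binds RNA and is induced by p53. Its largest difference was in MPP2, with 39.6, 41.2 and 45.0 CPM in KO-labelled libraries, against 8.42, 17.9 and 14.7 CPM in WT libraries (counts of 102 to 128 and 27 to 62). All KO-labelled libraries were above all WT libraries, by 3.06-fold (log2 fold change 1.61 ± 0.34 (SE), edgeR adjusted p = 0.000936), and only 0.658% of genes of at least 20 CPM had a larger one. After background subtraction the log2 fold change of Zmat3 in MPP2 was 1.76 ± 0.41 (adjusted p = 0.0108), with 38.7 ± 2.55 CPM in KO-labelled and 11.4 ± 5.21 CPM in WT MPP2 (SD, n = 3 each). In HSC it had 28.6, 27.0 and 41.4 CPM in KO-labelled libraries, against 17.2, 22.5 and 22.3 CPM in WT libraries. In MPP1 it had 48.1, 29.3 and 40.6 CPM in KO-labelled libraries, against 25.9, 22.8 and 26.0 CPM in WT libraries. These groups did not overlap, yet the log2 fold changes of 0.65 ± 0.33 and 0.66 ± 0.32 did not pass (adjusted p = 0.106 and 0.191). In MPP4 the libraries overlapped, because KO-labelled replicates 1 and 3 had 34.6 and 32.5 CPM, KO-labelled replicate 2 had 73.7 CPM, and WT replicate 1 had 36.8 CPM. There the log2 fold change of 0.85 ± 0.32 did not pass (edgeR adjusted p = 0.0606), and it passed at 1.02 to 1.18 without KO-labelled replicate 1, KO-labelled replicate 3 or WT replicate 1. Zmat3 also had the largest rise on the average of the populations (0.94 ± 0.16, edgeR adjusted p = 7.56e-06), which was 0.85 ± 0.20 after background subtraction (adjusted p = 0.00330). Whether its difference in MPP2 was larger than in the other populations did not pass the interaction test (adjusted p = 0.322).

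Trp53inp1 (ENSMUSG00000028211.12) encodes a stress-induced protein that acts with p53 in cell death and in autophagy. In MPP1 it had 53.5, 59.1 and 56.4 CPM in KO-labelled libraries, against 23.8, 18.5 and 35.0 CPM in WT libraries. The groups were well apart, and the rise was 2.18-fold (log2 fold change 1.13 ± 0.26 (SE), edgeR adjusted p = 0.00175). In HSC it had 40.1, 32.4 and 42.0 CPM in KO-labelled libraries, against 25.2, 17.5 and 23.7 CPM in WT libraries (1.72-fold, edgeR adjusted p = 0.0156). That call was lost without KO-labelled replicate 3 (adjusted p = 0.058) or WT replicate 2 (0.085). In MPP2, where its level was highest in both genotypes, Trp53inp1 had 76.8, 88.9 and 81.0 CPM in KO-labelled libraries, against 60.5, 41.8 and 60.6 CPM in WT libraries. These did not overlap, but the log2 fold change of 0.60 ± 0.25 did not pass (adjusted p = 0.150). In MPP4 the means were 31.1 ± 3.37 CPM in KO-labelled and 24.7 ± 7.38 CPM in WT libraries (SD, n = 3 each) and the libraries overlapped. After background subtraction no single population was called (adjusted p = 0.0626 in MPP1 and 0.404 in HSC), while the average of the 4 populations was (0.46 ± 0.14, adjusted p = 0.0223, against 0.71 ± 0.13 before).

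The other targets showed smaller or less even differences. Ccng1 (ENSMUSG00000020326.8), a cyclin that is among the steadiest p53 targets in mouse tissues, ranged from 12.9 to 45.8 CPM in KO-labelled and from 11.2 to 29.4 CPM in WT libraries. Its means were 38.1 ± 6.67 CPM in KO-labelled and 19.7 ± 7.51 CPM in WT MPP4, which did not overlap and did not pass the test (edgeR adjusted p = 0.0655), and 20.4 ± 8.08 and 20.4 ± 7.90 CPM in HSC (SD, n = 3 each). It was called on the average of the populations (0.44 ± 0.19, edgeR adjusted p = 0.0431), and 13 of the 24 libraries each ended that call when left out. Aen (ENSMUSG00000030609.19), a nuclease that p53 induces in dying cells, was called nowhere. In MPP2 it had 40.7, 80.5 and 60.4 CPM in KO-labelled libraries, against 31.5, 36.0 and 48.5 CPM in WT libraries, and in MPP4 it had 34.8, 30.9 and 32.2 CPM in KO-labelled libraries, against 42.1, 41.6 and 36.2 CPM in WT libraries. The MPP2 groups overlapped and the MPP4 groups did not, with the lower levels in KO-labelled libraries, but neither passed (adjusted p = 0.155 and 0.510).

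Eda2r and Phlda3 gave too few reads for a comparison in most groups. Eda2r (ENSMUSG00000034457.11), a receptor of the tumour necrosis factor family, had 1 to 58 counts per library, with the highest in KO-labelled MPP4 replicate 1. The background expected over its gene body was larger than its count in all 4 WT groups and in KO-labelled MPP1 and MPP2, so no level of its own could be given there. Phlda3 (ENSMUSG00000041801.6), which binds membrane lipids and so opposes the growth kinase Akt, had 0, 0 and 0 counts in KO-labelled HSC, against 29, 16 and 2 counts in WT HSC. It did not pass the filter, and a count of 0 in a library allows up to 3. In the other 6 groups Phlda3 had 0 to 7 counts per library.

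**Figure D2:**
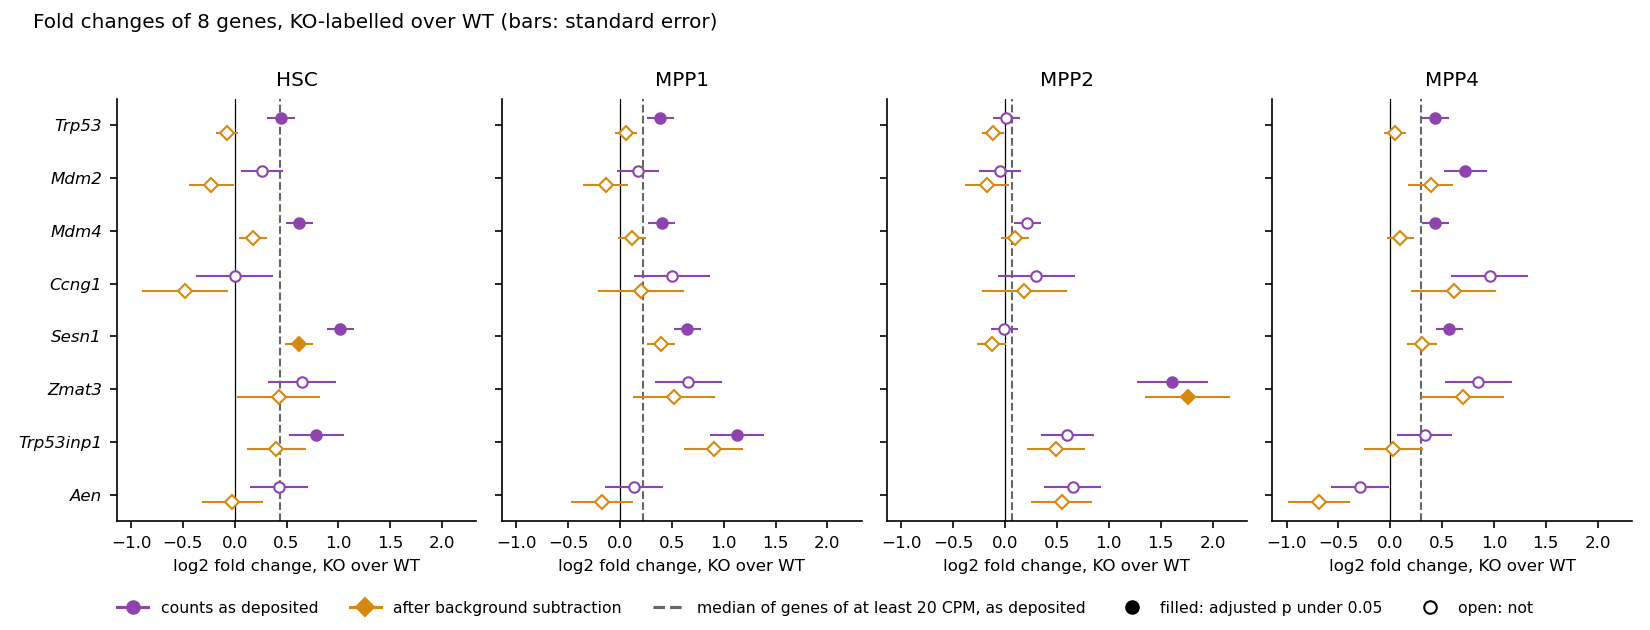
Log2 fold change of KO-labelled over WT libraries (x axis) for 8 of the 10 genes (rows) in each population, with standard errors, from counts as deposited (purple circles) and after background subtraction (orange diamonds); filled symbols passed an adjusted p of 0.05 and the dashed line is the median of genes of at least 20 CPM. After subtraction only Sesn1 in HSC (0.62) and Zmat3 in MPP2 (1.76) stayed filled.

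After the estimated background was subtracted from all genes, 8 of the 10 were tested. Then 1 of the 8 (Sesn1) rose in HSC, where 4.57% of all genes were called higher, and 0 rose in MPP1, against 3.01%. In MPP2 1 rose (Zmat3), against 1.71%, and in MPP4 0 rose, against 3.86%. On the average of the populations Sesn1, Zmat3 and Trp53inp1 rose, against 9.3%, and none of the 8 passed the interaction test, against 6.05%. These shares are over all 18612 genes tested. The 8 all averaged at least 20 CPM before subtraction, and the shares among such genes were not counted after it. The median log2 fold change of the 8 was 0.08 in HSC, 0.16 in MPP1, 0.14 in MPP2 and 0.20 in MPP4, and that of all genes -0.19, -0.10, -0.05 and -0.12.

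Each of 7 genes was also set against Trp53 within its own library, a ratio of 2 counts that no scaling of the library can change. This ratio was chosen after the data were seen, with p-values that are not adjusted for their number. On the average of the 4 populations Zmat3 rose by 0.62 relative to Trp53 on the log2 scale (exact two-sided permutation test of the genotype within populations, 160000 arrangements, p = 0.00970), Trp53inp1 by 0.42 (exact p = 0.00685) and Sesn1 by 0.24 (exact p = 0.0214). For Zmat3 most of the difference was in MPP2, at -1.77 ± 0.25 in KO-labelled against -3.45 ± 0.58 in WT libraries (log2 of the count over the Trp53 count, mean ± SD, n = 3 each). For Sesn1 it was in HSC, at 1.08 ± 0.25 in KO-labelled and 0.52 ± 0.19 in WT libraries. For Trp53inp1 it was in MPP1, at -1.001 ± 0.03 in KO-labelled and -1.79 ± 0.48 in WT libraries, and in MPP2, at -0.80 ± 0.24 and -1.41 ± 0.27. In MPP4 Trp53inp1 differed by -0.06 relative to Trp53. The average differences of Mdm4 (0.10, exact p = 0.247), Ccng1 (0.10, exact p = 0.605), Mdm2 (-0.06, exact p = 0.598) and Aen (-0.12, exact p = 0.500) did not pass the same test.

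**Figure D3:**
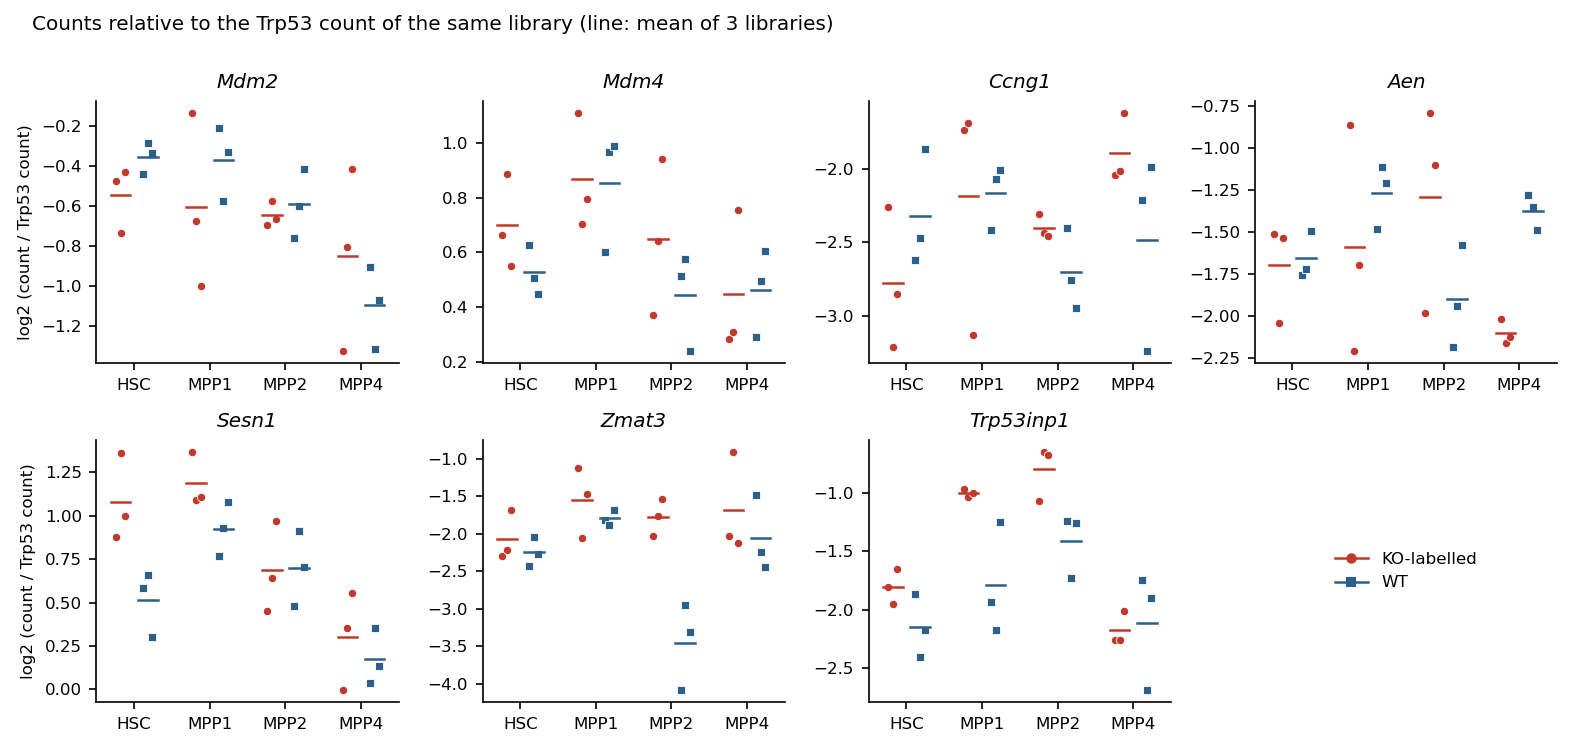
Log2 ratio of the count of each of 7 genes to the Trp53 count of the same library (y axis), by population (x axis), with KO-labelled libraries as red circles to the left of WT libraries as blue squares and a line at the mean of 3 libraries. Zmat3 in MPP2 lies near -1.77 in KO-labelled and near -3.45 in WT libraries, and Mdm2 and Mdm4 overlap between genotypes.

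Among WT cells, the genes were also compared between each progenitor population and HSC. In WT MPP2 4 of the 9 (Trp53, Mdm4, Sesn1 and Trp53inp1) were higher than in WT HSC, where 11.7% of all genes tested and 27.6% of genes of at least 20 CPM were called higher. Trp53inp1 differed most, at 54.3 ± 10.9 CPM in WT MPP2 and 22.1 ± 4.09 CPM in WT HSC (SD, n = 3 each; 2.45-fold, edgeR adjusted p = 0.000228), and Sesn1 had 232 ± 30.1 CPM in WT MPP2 and 139 ± 7.13 CPM in WT HSC (1.67-fold, edgeR adjusted p = 2.59e-05). Both were still called after background subtraction, where 6.24% of all genes were called higher, with log2 fold changes of 1.09 and 0.51 (adjusted p = 0.0126 and 0.0164). Trp53 was 1.46-fold and Mdm4 1.39-fold higher (edgeR adjusted p = 0.00181 and 0.00716), and neither was called after it (0.22 and 0.20, adjusted p = 0.217 and 0.435). None of the 9 was called in WT MPP1 against WT HSC by edgeR or DESeq2 at an adjusted p under 0.05, and 0 had an unadjusted p under 0.05 in edgeR, where 3.8% of all genes were called in either direction. In WT MPP4, Mdm2 was 1.57-fold lower than in WT HSC (log2 fold change -0.65 ± 0.21 (SE), edgeR adjusted p = 0.0338), where 7.43% of all genes and 17.2% of genes of at least 20 CPM were called lower. That call was lost without any of 4 of the 6 libraries compared (WT HSC replicates 2 and 3, WT MPP4 replicates 2 and 3; adjusted p 0.072 to 0.165) and after subtraction (adjusted p = 0.180). These comparisons share their WT libraries with those between the genotypes.

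Over the 24 libraries the closest relation among the 9 genes was between Mdm4 and Sesn1 (Pearson's r of log2 CPM 0.85), and the lowest between Trp53inp1 and Eda2r (-0.43). Trp53 had r = 0.63 with Trp53inp1, 0.56 with Mdm2, 0.53 with Sesn1 and 0.16 with Zmat3. The genes most like Trp53 over these libraries, among those of at least 5 CPM, were Tubb5 (r = 0.95), Runx3 (0.93) and Gapdh (0.91). For Mdm2 they were Tpm3 (0.86), Gnpat (0.84) and Glyr1 (0.84), and for Ccng1 Suclg1 (0.68), Gtpbp4 (0.67) and Polr3f (0.66). All points share the library totals and fall into 8 groups, so these values are descriptions.

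The wider pathway was described with 7 lists of 70 other genes, of which 66 were tested. In KO-labelled HSC 21 of the 66 rose and 9 fell, in MPP1 10 rose and 2 fell, in MPP2 2 rose and 3 fell, and in MPP4 11 rose and 2 fell. In HSC that is to be read beside the 18.3% of all genes and 43.5% of genes of at least 20 CPM called higher and the 24.8% of all genes called lower, and in the other populations beside the shares given above. Here the share called lower among genes of at least 20 CPM is not given. The median log2 fold change of the 66 was 0.32 in HSC, 0.14 in MPP1, 0.04 in MPP2 and 0.20 in MPP4. After background subtraction 6 rose and 2 fell in HSC, 3 and 3 in MPP1, 0 and 3 in MPP2, and 1 and 2 in MPP4, of 65 genes tested. Of all genes, 4.57% were then called higher in HSC, 3.01% in MPP1, 1.71% in MPP2 and 3.86% in MPP4. Called lower were 4.43% in HSC, 2.94% in MPP1, 2.98% in MPP2 and 3.11% in MPP4. The shares among genes of at least 20 CPM were not counted after subtraction. In WT MPP2 against WT HSC 21 of the 66 rose and 0 fell, where 11.7% of all genes and 27.6% of genes of at least 20 CPM were called higher and 7.37% of all genes lower.

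The counts by list that follow are for HSC, with the same 18.3% (43.5% from 20 CPM) called higher and 24.8% lower over all genes. The share called lower from 20 CPM is not given. Among the 14 kinases and other activators of p53, 9 rose and 0 fell. Hipk2, a kinase that phosphorylates p53, had 959 ± 101 CPM in KO-labelled and 445 ± 28.6 CPM in WT HSC (SD, n = 3 each; log2 fold change 1.11 ± 0.09 (SE), edgeR adjusted p = 2.81e-13; 0.65 after subtraction, adjusted p = 6.60e-05). Chek2, a checkpoint kinase of the DNA damage response, had 68.1 ± 18.3 CPM in KO-labelled and 28.5 ± 2.70 CPM in WT HSC (1.26 ± 0.23, edgeR adjusted p = 3.36e-05; 0.98 after subtraction, adjusted p = 0.0131). Trp53bp1, an adaptor at DNA breaks, had 213 ± 23.4 CPM in KO-labelled and 110 ± 15.7 CPM in WT MPP1 (0.96 ± 0.16, edgeR adjusted p = 1.50e-05; 0.74 after subtraction, adjusted p = 0.0109). Of 7 negative regulators 3 rose and 0 fell in HSC. Huwe1, a ubiquitin ligase that acts on p53, had 1680 ± 55.3 CPM in KO-labelled and 931 ± 25.2 CPM in WT HSC (0.85 ± 0.07, edgeR adjusted p = 1.99e-13; 0.34 after subtraction, adjusted p = 0.00247).

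Among targets that arrest the cell cycle the clearest change was a fall. Btg2, an antiproliferative gene, had 11.8 ± 4.86 CPM in KO-labelled and 142 ± 4.93 CPM in WT MPP2, and 4.74 ± 2.31 CPM in KO-labelled and 16.1 ± 4.02 CPM in WT HSC (SD, n = 3 each). Its log2 fold change was -1.77 in HSC, -2.13 in MPP1, -3.57 in MPP2 and -2.22 in MPP4, called in each (edgeR adjusted p 1.58e-11 to 7.22e-05), and -2.36 to -3.75 after subtraction, again called in each. Plk2, a polo-like kinase, was listed at 4 to 11 counts per library in KO-labelled HSC, against 73 to 77 counts in WT HSC (edgeR adjusted p = 0.00575, and 0.136 after subtraction). Cdkn1a, which encodes the cell cycle inhibitor p21, was low in HSC, at 2 to 14 counts per library in KO-labelled and 2 to 9 counts in WT libraries, and reached 38 to 70 counts in KO-labelled and 25 to 42 counts in WT MPP2. It was not called in any population between the genotypes. Psrc1 rose in HSC and in MPP4 (log2 fold changes 1.74 and 1.28, edgeR adjusted p = 0.00172 and 0.0386) and was called in neither after subtraction (0.137 and 0.327).

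Of 10 apoptosis targets tested, 2 rose and 2 fell in HSC. The death receptor gene Fas and the membrane protein gene Perp were those that fell, and their expected background was 37.2% and 133% of the counts in KO-labelled HSC and 34.9% and 38.2% in WT HSC. Neither call was left in HSC after subtraction (adjusted p = 0.328 and 0.0909). The cell death genes Bax and Bbc3 were called in no population between the genotypes (Bax on their average, log2 fold change 1.10 ± 0.47, edgeR adjusted p = 0.0470, and 0.189 after subtraction), and Pmaip1 had 0 to 19 counts per library. Of 7 DNA repair targets 3 rose in HSC, among them Pcna, the sliding clamp of replication, at 66.9 ± 6.51 CPM in KO-labelled and 32.8 ± 9.68 CPM in WT HSC (SD, n = 3 each; edgeR adjusted p = 0.000271, and 0.133 after subtraction). Of 19 metabolic and other targets 3 rose and 3 fell in HSC. Ptp4a3, a phosphatase, had 171 ± 17.2 CPM in KO-labelled and 70.6 ± 11.1 CPM in WT HSC (1.27 ± 0.18, edgeR adjusted p = 2.18e-07; 0.84 after subtraction, adjusted p = 0.00570). Prkab1, a regulatory subunit of the energy sensor AMPK, had 4.14 ± 2.72 CPM in KO-labelled and 21.1 ± 3.67 CPM in WT HSC (-2.33 ± 0.41, edgeR adjusted p = 1.17e-05; -2.99 after subtraction, adjusted p = 8.60e-05). Both genes of the p53 family, Trp63 and Trp73, were called lower in HSC, where expected background was 161% and 88.2% of their counts in KO-labelled and 96.1% and 88.1% in WT HSC.

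**Figure D4:**
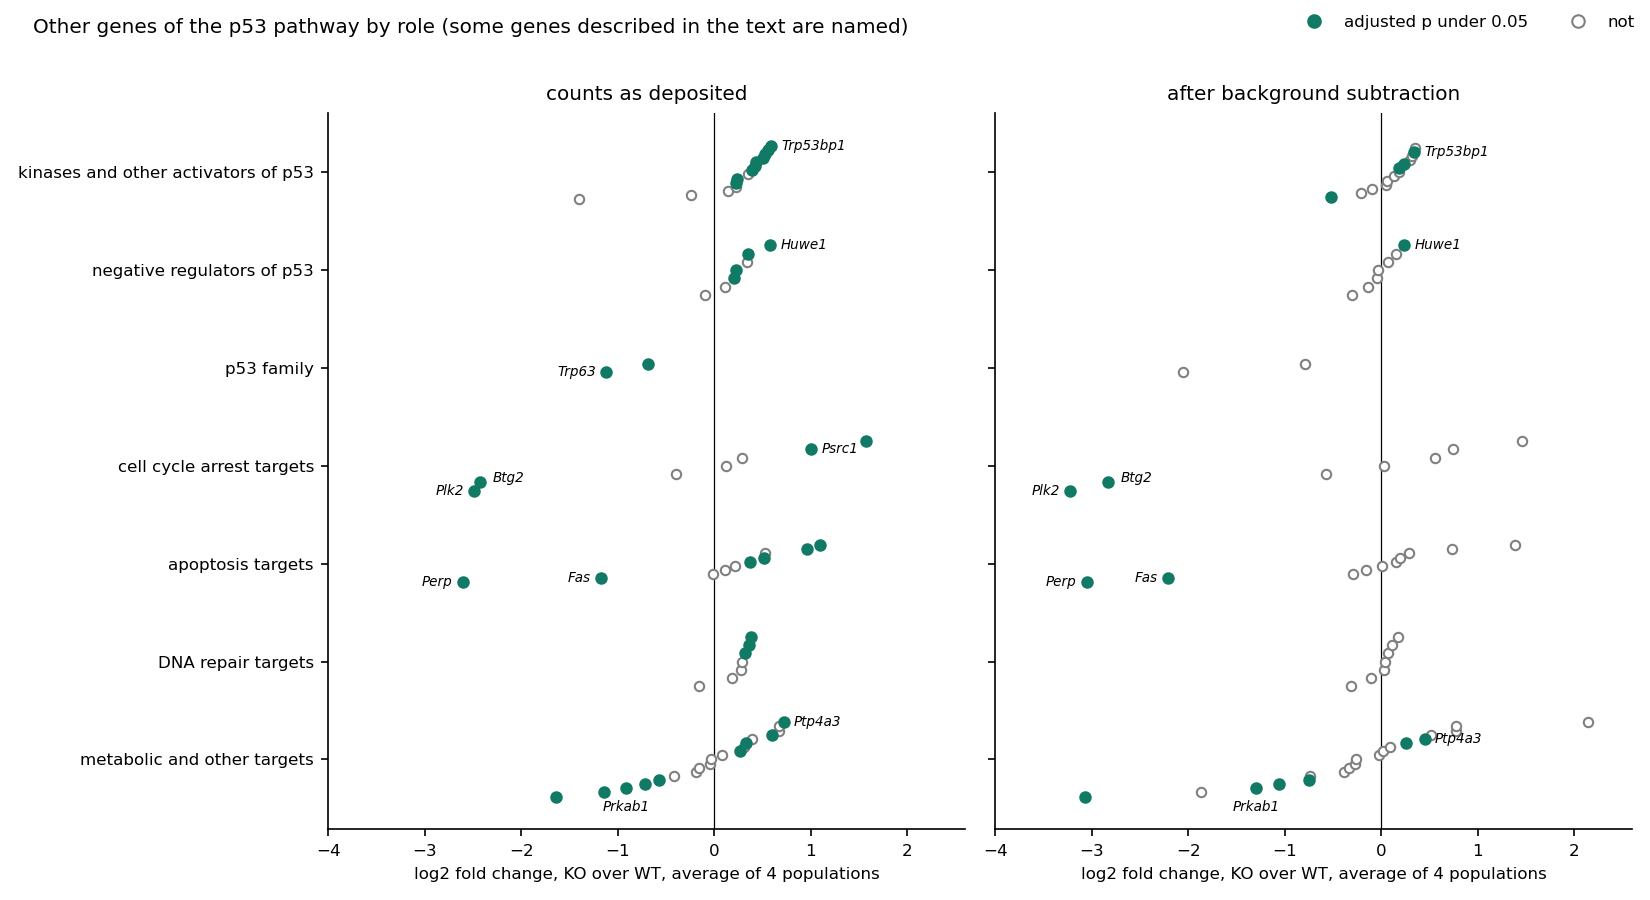
Log2 fold change of KO-labelled over WT libraries on the average of the 4 populations (x axis) for the other pathway genes, by role (rows), as deposited (left) and after background subtraction (right); filled points passed an adjusted p of 0.05 and some of the genes described in the text are named. Btg2 lies at -2.42 on the left and -2.83 on the right, and Huwe1 at 0.58 and 0.24.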

How the data were processed

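RNA of sorted cells was sequenced in 24 libraries. The authors deposited raw counts per gene as whole numbers, in a table of 56748 genes with 24 sample columns, each matched to a sample by its description. Per the submitters' processing notes the build was mm39, and SAMtools 1.12 and DESeq2 had a part in the work. No aligner, counting program or strand setting is given in the sources used here.

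In edgeR 4.0.16 (R 4.3.3), 21964 genes passed filterByExpr and totals were scaled by the trimmed mean of M-values (TMM). A single quasi-likelihood model of 8 group means used all 24 libraries, with 16 residual degrees of freedom. It gave 9 comparisons, with Benjamini-Hochberg adjustment over all genes tested. A standard error is the size of the log2 fold change divided by the root of the F statistic. The code was tested on simulated data.

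Background per kb was taken from 2003 olfactory and vomeronasal receptor genes, multiplied by gene spans of an annotation of the earlier build GRCm38 (52125 identifiers, 91.9%, were found there) and subtracted before a refit of 18612 genes. Levels per kb use exon lengths of that annotation. Annotated genes that overlap Mdm4 (on the other strand) and Sesn1 had 0 counts in all libraries.

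The genes, lists and tests were chosen with earlier results of these data known. The rule for named genes took all 10 genes, Ddx6, up to 4 called genes of each list and comparison with the smallest p and at least 1 CPM, and the 3 genes most correlated with each of Trp53, Mdm2 and Ccng1. Cdkn1a, Bbc3 and Pmaip1 were added after their values were seen. The alternatives were median-of-ratios size factors, DESeq2 1.42.0, other filters on low counts, a fit of only the libraries compared, a block for the replicate number, leaving out each library, background subtraction and the ratio to Trp53. Chi-square per gene between libraries of 1 group was 4.19 to 9.71, above sampling noise, so no library was taken as another one sequenced again. These values cannot tell separate animals from repeat libraries of 1 pool of cells.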

Additional observations from a re-analysis of the deposited data

Results flagged for a closer look

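The difference between KO-labelled and WT libraries differed between the 4 populations, by edgeR's interaction test with Benjamini-Hochberg adjustment, for Sesn1 (adjusted p = 0.000472) and for 14 of the other pathway genes named by rule. In all, 16 of the 66 other pathway genes were called, beside 17.7% of all genes and 34.3% of genes of at least 20 CPM. Among regulators these were Hipk2 (1.5e-07), Crebbp (5.87e-06), Huwe1 (0.000216), Ep300 (0.00306), Cop1 (0.00612) and Usp10 (0.00852). Among targets they were Ptp4a3 (0.00107), Prkab1 (0.00151), Btg2 (0.0115), Abhd4 (0.0116), Pank1 (0.0178), Plk2 (0.0422) and Pidd1 (0.0457), and in the p53 family Trp63 (0.0151). After background subtraction Hipk2 (adjusted p = 0.00389), Crebbp (0.00587) and Prkab1 (0.00708) were still called. The rest were not, Sesn1 among them (0.0902), and the difference of the other 8 genes described first did not pass before it either (adjusted p 0.213 to 0.806).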

How the results depend on the processing

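Background subtraction moved the counts of calls by over 1.5 times in 7 of the 9 comparisons. The genes called were then 1676 in HSC, 1108 in MPP1, 873 in MPP2, 1297 in MPP4, 4433 on the average of the populations, 1126 in the interaction and 1933 in WT MPP2 against WT HSC, compared with 9462, 2988, 1735, 3926, 11689, 3881 and 4195 before it. In WT MPP1 and WT MPP4 against WT HSC they were 820 and 2087, compared with 835 and 2273. Of the genes described, 1 was called in HSC, 0 in MPP1, 0 in MPP4, 3 on the average, 0 in the interaction (adjusted p of Sesn1 0.0902), 2 in WT MPP2 and 0 in WT MPP4. The log2 fold change of Trp53 was then -0.074 in HSC, -0.12 in MPP2 and -0.021 on the average. That of Mdm2 was -0.22 in HSC, -0.14 in MPP1 and -0.037 on the average, and that of Aen -0.024, -0.17 and -0.084. Ccng1 was at -0.18 in WT MPP2 and 0.15 in WT MPP4 against WT HSC. Of these reversals, Trp53 in HSC and on the average and Mdm2 on the average had been called.

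With TMM scaling in edgeR 4 of the genes described were called in HSC, 4 in MPP1, 4 in MPP4 and 1 in WT MPP4 against WT HSC. With median-of-ratios size factors 2 genes were called in HSC, 2 in MPP1, 1 in MPP4 and 0 in WT MPP4. Most of the calls in MPP4 therefore depended on the scaling. DESeq2 called 2 in MPP1, 1 in MPP4 and 0 in WT MPP4, and a fit of only the libraries compared called 2 in HSC and 1 in MPP4. Trp53 in MPP2 was at -0.020 with size factors, -0.021 with DESeq2 and -0.0081 with only the libraries compared, Ccng1 in WT MPP4 at 0.071 with size factors and 0.071 with DESeq2, and Ccng1 in HSC at 0.0074 without a filter on low counts. As ratios to Trp53, Mdm2 was at -0.057 and Aen at -0.12 on the average. The share of calls that were higher was 48.8% in MPP1 and 41.8% in MPP4 with DESeq2 and 50.6% in MPP1 and 36.5% in MPP2 after subtraction, compared with 64.0%, 63.8% and 47.3%. In WT MPP4 it was 44.6%, 46.7% and 42.8% with size factors, DESeq2 and subtraction, compared with 28.2%, in WT MPP2 51.4% with DESeq2, compared with 61.4%, and in WT MPP1 61.8% after subtraction, compared with 51.9%. The cause was not tested.

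Leaving out 1 library at a time, 2 to 3 genes were called in MPP1 and 0 to 1 in WT MPP4, and 1091 to 1397 of all genes in MPP2. The log2 fold change of Ccng1 ran from -0.35 to 0.36 in HSC, from -0.26 to 0.28 in WT MPP1, from -0.060 to 0.49 in WT MPP2 and from -0.30 to 0.30 in WT MPP4. Mdm2 ran from -0.018 to 0.35 in MPP1 and from -0.13 to 0.058 in MPP2, Aen from -0.23 to 0.36 in MPP1, Trp53 from -0.082 to 0.080 and Sesn1 from -0.11 to 0.079 in MPP2. Eda2r ran from -0.61 to 1.30 in MPP4, from -0.092 to 0.39 on the average and from -0.51 to 0.0039 in WT MPP1. Trp53inp1 ran from -0.064 to 0.41 in WT MPP1 and from -0.021 to 0.39 in WT MPP4, and Mdm4 from -0.037 to 0.13 in WT MPP4. None of these reversed values had been called. On the average of the populations the call of Mdm2 was lost without KO-labelled replicate 1 of MPP1 (adjusted p = 0.057) or replicate 3 of MPP4 (0.063).

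Libraries with the same replicate number did not deviate together across genotypes (r from -0.014 to 0.019) or, within a genotype, across populations (r from -0.017 to 0.026). The labels do not say whether they share an animal. With the replicate block 4 of the genes were called in HSC, 4 in MPP1, 1 in MPP2, 4 in MPP4 and 7 on the average, the same counts as without it. Depth limits Eda2r and Phlda3. Expected background was 47.8% of the Eda2r counts in KO-labelled HSC and 77.4% in KO-labelled MPP4, and over the 3 libraries 5.16 of 47 Phlda3 counts in WT HSC.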
